A study of Mus musculus with 8 samples.

Results

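The genes described here encode the proteins of the cytosolic ribosome, as measured by RNA sequencing in mouse liver. They were chosen by name from the count table: every symbol made of Rpl or Rps and a number, with or without a final a, x or l, and in addition Rplp0, Rplp1, Rplp2 and Rpsa. This gave 80 of the 22155 genes in the table, 31 of them of the small (40S) subunit and 49 of the large (60S) subunit. The rule uses no measured value. In all, 77 of the 80 had enough counts to be tested, out of 13999 genes tested in the whole table.

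The 8 libraries fall into 4 groups of 2, all from adult C57BL/6 mice aged 8 to 10 weeks in the sample labels. The Yap control group was homozygous for a floxed Yap1 allele and received a virus carrying GFP. The Yap1 knockout group received a virus carrying iCre, a Cre recombinase, in its place, which made the deletion specific to hepatocytes. The design text names the viral vector as AAV8. The Ctgf control group was homozygous for a floxed Ctgf allele, and the Ctgf knockout group is labelled a conditional knockout. Not given in the sources used here are the Cre driver of that knockout and any virus in the Ctgf groups. Every group, controls included, was fed a liquid diet with 1% ethanol for 2 days and 2% ethanol for 10 days, and received 1 µl of carbon tetrachloride, a liver toxin, per g of body weight 2 days before sacrifice. No group without ethanol and toxin enters the comparisons. The labels do not say whether replicates were separate animals, so the spread between them may be technical.

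A ribosome holds 1 copy of nearly every ribosomal protein, bound to the ribosomal RNAs, and cells make the proteins of both subunits in step. Their mRNAs start with a run of pyrimidines, the 5′ terminal oligopyrimidine (TOP) motif, through which the mTOR pathway and the binding protein Larp1 set how strongly they are translated. In liver, ribosome production rises when hepatocytes leave rest and regrow after injury. Ribosomal protein genes have also left many processed pseudogenes in the mammalian genome, so short reads from them can match several places.

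Library totals lay between 26904021 and 33488609 counts. Levels are in CPM, counts relative to the library total, with totals adjusted by TMM, a method that sets the libraries to a common scale from the bulk of the genes. A count of 3, the floor for a gene listed at 0, corresponds to 0.083 to 0.123 CPM. The targeted Yap1 stood at 107 and 76.1 CPM in the Yap controls and at 31.0 and 32.5 CPM in the Yap1 knockouts, a log2 fold change of -1.53 (SE 0.22, edgeR adjusted p = 0.0557). The level of Ctgf was 28.8 and 32.1 CPM in its controls, 8.02 CPM in the first knockout and 49.2 CPM in the library labelled Ctgf knockout 2, which is above both controls and goes against its label. The defining hepatocyte genes were abundant in every library, at 39262 to 79098 CPM in sum over 6 genes. Yap control 2 stood apart: 16 genes of the exocrine pancreas summed to 14850 CPM there and to between 3.46 and 7.89 CPM in the other 7 libraries. For 6 genes of the pancreatic islet the sum was 42.1 CPM in Yap control 2 and at most 0.0346 CPM elsewhere. Values below are therefore given with and without Yap control 2.

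Where transcription starts bears on the TOP motif, so the bases around the listed starts were searched. The RefSeq promoter table (GRCm38.p6) held 60 of the 80 genes, and in 50 of these a listed start lay at the end of the RefSeq gene. From 20 bases before the start to 30 after it, on the sense strand, CTTTCC was found in 12 of the 60 genes (20%, against 2.83% of all 27025 genes in the table). CTCTTT was found in 11 (18.3%, against 2.15%) and CTTTTC in 5 (8.33%, against 2.01%), and these motifs can overlap each other. In all, 23 of 60 had at least one of them (38.3%, against 6.24%). Over the whole window of 300 bases on both strands, CCGGAAG, a sequence that ETS-family factors bind, was in 25 of 60 (41.7%, against 9.93%), and AAGATGG, the core known for the factor YY1, in 9 (15%, against 7.28%). A match describes these letters only. The starts shown next are of genes with such a run and of genes without one, at high and low levels, each with 25 bases before and 15 from the start on. Capitals mark the motif.
Rps9 (chr7:3704016-3704055, plus strand): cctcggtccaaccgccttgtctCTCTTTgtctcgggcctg
Rps26 (chr10:128626492-128626531, minus strand): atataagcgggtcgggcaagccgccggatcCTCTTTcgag
Rpl18 (chr7:45718046-45718085, plus strand): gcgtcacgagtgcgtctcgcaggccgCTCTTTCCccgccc
Rpl35 (chr2:39005117-39005156, minus strand): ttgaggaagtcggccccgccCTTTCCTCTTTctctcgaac
Rpl28 (chr7:4792940-4792979, plus strand): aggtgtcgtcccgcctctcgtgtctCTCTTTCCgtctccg
Rps6 (chr4:86857353-86857392, minus strand): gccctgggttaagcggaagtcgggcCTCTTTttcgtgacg
Rplp0 (chr5:115559442-115559481, plus strand): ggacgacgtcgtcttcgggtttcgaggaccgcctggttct
Rps3 (chr7:99483695-99483734, minus strand): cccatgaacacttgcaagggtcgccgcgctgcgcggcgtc
The last pair holds none of the 3 pyrimidine motifs in the searched stretch.

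The searched start motifs did not sort the genes by level. Per kilobase of transcript, Rps9 stood at 299 CPM and Rps26 at 148 CPM, whereas Rpl28 stood at 3.43 CPM and Rps6 at 1.94 CPM, although all of them carry CTCTTT at the start. Over the 22 tested genes with a searched motif the median level was 27.1 CPM per kilobase, and over the 35 without one it was 43 CPM per kilobase. The latter can hold other pyrimidine runs, so this does not compare genes with and without a TOP motif.

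The recorded levels of the ribosomal protein genes differed far more from each other than any differed between groups. The highest mean over the 8 libraries, 828 CPM, was that of Rpl4, a protein of the nascent chain's exit tunnel. Next to it stood Rpl8, which lies at the peptidyl transferase centre, at 595 CPM. At the other end, Rps29, Rpl38, Rpl19 and Rpl23a stood below 1 CPM, at 0.543, 0.652, 0.807 and 0.839 CPM. The top 5 genes held 44.6% of the summed level and the top 10 held 59.5%. In contrast, the 22 tested genes under 10 CPM, with the 3 untested ones, held 0.979%.

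The span remained wide per kilobase of transcript, a scale that allows genes of different length to be compared. High values were 699 CPM for Rpl8, 539 CPM for Rpl4, 536 CPM for Rplp1 and 310 CPM for Rplp0. The lowest was 0.953 CPM for Rps16, which is 734-fold below the highest, followed by 1.08 CPM for Rpl19, 1.39 CPM for Rps29, 1.41 CPM for Rps23 and 1.5 CPM for Rpl23a. Lengths come from 1 transcript per gene of GENCODE M21. They run from 345 to 5130 bases with a median of 761, and an unusually long model, such as the longest, that of Rps15a, lowers the value per kilobase. All 80 genes have a position in that annotation, spread over 19 chromosomes. Rpl8 lies at chr15:76904078-76906314 with 6 exons and Rplp1 at chr9:61913284-61914542 with 3 exons (GRCm38).

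The transcripts differ in how much of their sequence recurs in other genes. Each transcript was read in steps of 1 base in windows of 50 bases, and a window was called shared when it also occurs in a transcript of another gene, pseudogenes included. Of the 77 tested genes, 76 had at least 1 shared window, and the median share was 52.3%. Rpl8 had 7.86% and Rpl4 16.5%, whereas Rpl19 had 79.3%, Rps6 84.6% and Rps27 98.6%. Among the 12 genes with under 30% of windows shared, the median level was 182 CPM per kilobase and no gene lay under 10 CPM. Among the 33 genes with 30 to 60% shared it was 61.0 CPM per kilobase, with 7 genes under 10 CPM. Among the 32 genes with 60% or more shared it was 17.4 CPM per kilobase, with 15 genes under 10 CPM. Across the 77 genes, Spearman's rho between the shared part and the level per kilobase was -0.50 for windows of 50 bases and -0.64 for windows of 100 bases. These are values over genes that come from the same libraries and share pseudogene copies, and they describe the table only. The relation was loose: Rplp1 had 60% of its windows shared and stood at 536 CPM per kilobase, whereas Rps16 and Rps29 had 40.1% and 35.8% shared and stood near 1 CPM per kilobase. The table also lists 15 rows named as pseudogenes or a retrogene of ribosomal proteins, which summed to 1.53 to 4.32 CPM per library. Not given in the sources used here is how reads matching several places were counted, so a low recorded level is uncertain as a level of the mRNA, and the part of shared sequence in it was not tested.

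**Figure D1:**
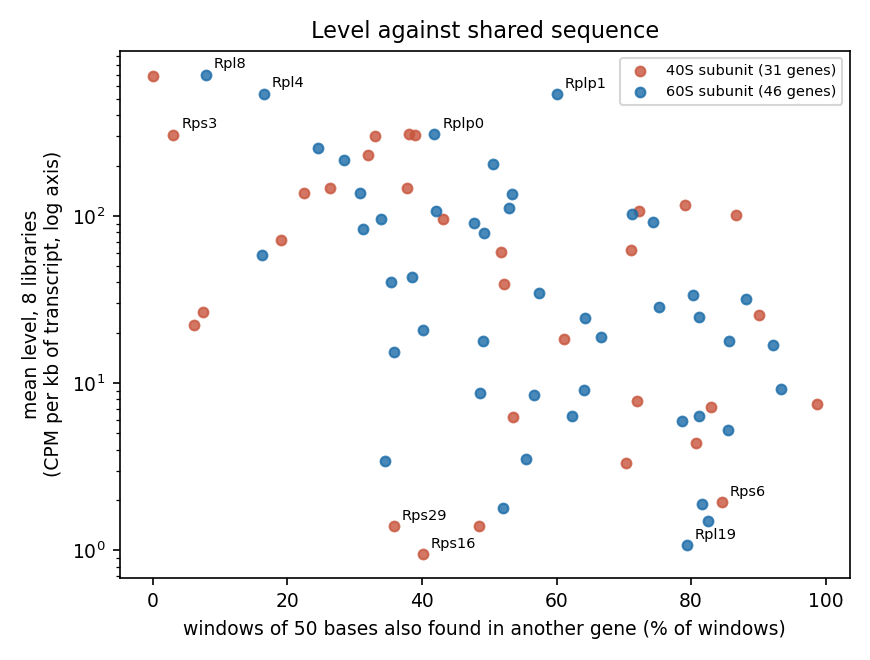
Mean level over the 8 libraries (CPM per kilobase of transcript, log axis) of the 77 tested ribosomal protein genes against the percentage of their 50-base windows that also occur in another gene, with a point per gene coloured by subunit. Genes with few shared windows range from Rpl8 at 699 CPM per kilobase with 7.86% shared to Rps15a at 22.4 CPM per kilobase with 6.04% shared. Genes with many shared windows range from Rplp1 at 536 to Rpl19 at 1.08 CPM per kilobase.

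The paralogs Rpl10l, Rpl39l and Rpl3l had at most 10 counts in any library. Rpl10l, known from male germ cells, was listed at 0 in all 8 libraries. Rpl39l, known from the same cells, had 0 to 3 counts per library, and Rpl3l, known from striated muscle, had 1 to 10 counts, so neither was tested. Their widely used partners were measured: Rpl3 at 20.3 to 29.7 CPM, Rpl10 at 11 to 16.2 CPM and Rpl39 at 27.8 to 57.7 CPM. For another pair the paralog was the higher: Rps27l, known as a target of p53, stood at 52.0 to 103 CPM, and Rps27 at 1.96 to 3.91 CPM, of which 98.6% of windows are shared. Per kilobase, Rps27l stood at 138 CPM and Rps27 at 7.54 CPM. Further members with a paralog stood at 78.1 to 156 CPM (Rps4x), 105 to 165 CPM (Rpl22), 124 to 215 CPM (Rpl7) and 1.94 to 3.12 CPM (Rpl36a).

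A single library stood apart in the ribosomal protein genes as a group. They took 0.938% of all counts in Yap control 2 (95% Wilson interval 0.934 to 0.942%), and 0.612% in Yap control 1 (0.609 to 0.614%). The share was 0.579% and 0.572% in the knockouts of Yap1. It was 0.644% and 0.648% in the Ctgf controls, 0.634% in Ctgf knockout 1 and 0.606% in the library labelled Ctgf knockout 2. Yap control 2 was the highest and the other 7 libraries lay within 0.572 to 0.648%. These intervals cover counting error only. On the TMM scale the summed level was 10389 CPM in Yap control 2 and 5238 CPM in Yap control 1, a ratio of 1.98, while the ratio of their shares of counts was 1.53. The Yap1 knockouts summed to 5922 and 5974 CPM. The Ctgf controls summed to 6358 and 6148 CPM, and the Ctgf knockouts as labelled to 6408 and 6457 CPM. Yap control 2 was 1.71 times the mean of the other 7, and Yap control 1 was the lowest of all 8 on this scale. The balance of the subunits varied little: the ratio of 40S to 60S counts lay between 0.766 and 0.802 in every library.

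**Figure D2:**
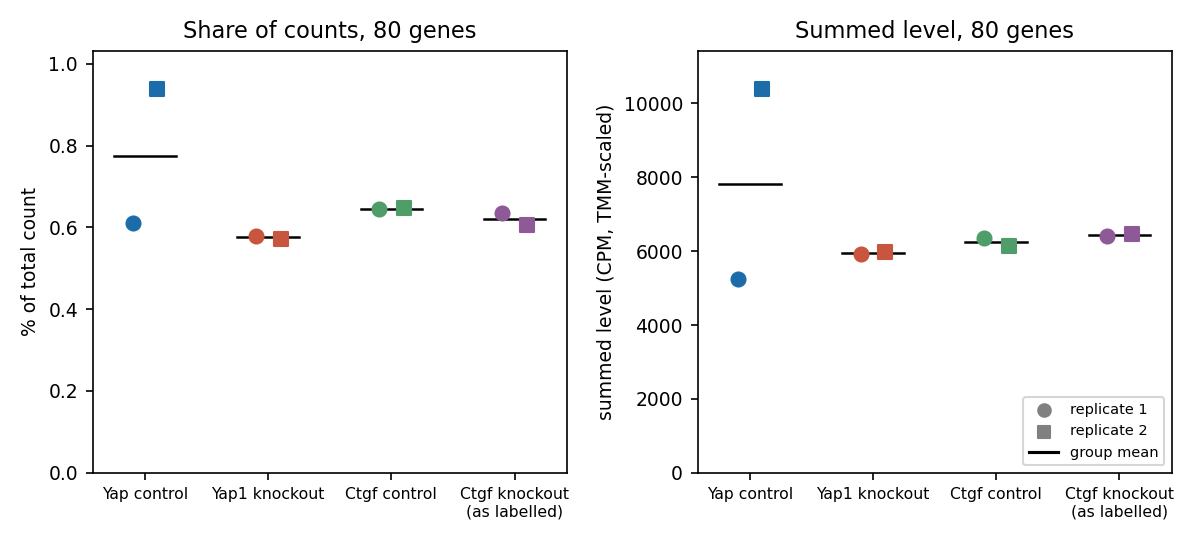
Ribosomal protein genes in each of the 8 libraries, as the percentage of the total count (left) and as the summed TMM-scaled level in CPM (right), with circles for replicate 1, squares for replicate 2 and a line at the group mean (n = 2). Yap control 2 is at 0.938% and 10389 CPM, and the other 7 libraries lie at 0.572 to 0.648% and 5238 to 6457 CPM.

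Gene by gene, 59 of the 77 tested members had their highest level in Yap control 2, whereas 23.8% of all genes tested did. The median ratio of Yap control 2 to the mean of the other 7 libraries was 1.52 for the members and 0.938 for all genes tested. Among the 55 members at 10 CPM or more the median ratio was 1.76 and 48 were highest there. Among the 22 members under 10 CPM it was 1.25 and 11 were highest there. Members of the 40S subunit had a median ratio of 1.62 and those of the 60S subunit 1.49. The ratio also went with the shared sequence, at a median of 1.81, 1.72 and 1.30 in the genes with under 30%, 30 to 60% and at least 60% of windows shared. Across the 77 genes, Spearman's rho was -0.48 with the shared part and 0.56 with the level per kilobase, again as a description. In genes with and without a searched pyrimidine motif near the start the median ratio was 1.49 and 1.57. In the other 7 libraries the median ratio of the highest to the lowest library was 1.31 for the members, and 1.92 over all genes tested. These sets were not matched for level, and among members the ratio was 1.28 at 10 CPM or more and 1.53 under 10 CPM. In 45 members the lowest library was Yap control 1.

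The genes highest over the others in Yap control 2 were Rpl14, Rplp1, Rps15 and Rps21, with ratios of 2.23, 2.21, 2.17 and 2.16. Rpl14 (60S) stood at 154 CPM in Yap control 2, at 62.7 CPM in Yap control 1 and at 66.2 to 75.4 CPM in the other 6 libraries. Rps15, which reaches the decoding site of the small subunit, stood at 289 CPM in Yap control 2, at 124 CPM in Yap control 1 and at 123 to 152 CPM in the others. The exceptions were Rpl24, with a ratio of 0.481, Rpl10, with 0.790, and Rpl38, with 0.940. Rpl24 stood at 0.659 CPM in Yap control 2 and at 1.19 to 1.53 CPM in the other 7 libraries, so that it was lowest in the library where most members were highest. The exocrine pancreas and islet genes were high in the same library. Hepatocyte genes summed to 76322 CPM there and to 79098 CPM in the library labelled Ctgf knockout 2, but single genes differed. In that order, Alb stood at 55345 and 69274 CPM and Apoa1 at 13879 and 3193 CPM. The parts of pancreatic and of hepatocyte RNA in the ribosomal protein levels of Yap control 2 were not tested. In whole tissue, more cells of a type and more RNA per cell cannot be told apart.

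**Figure D3:**
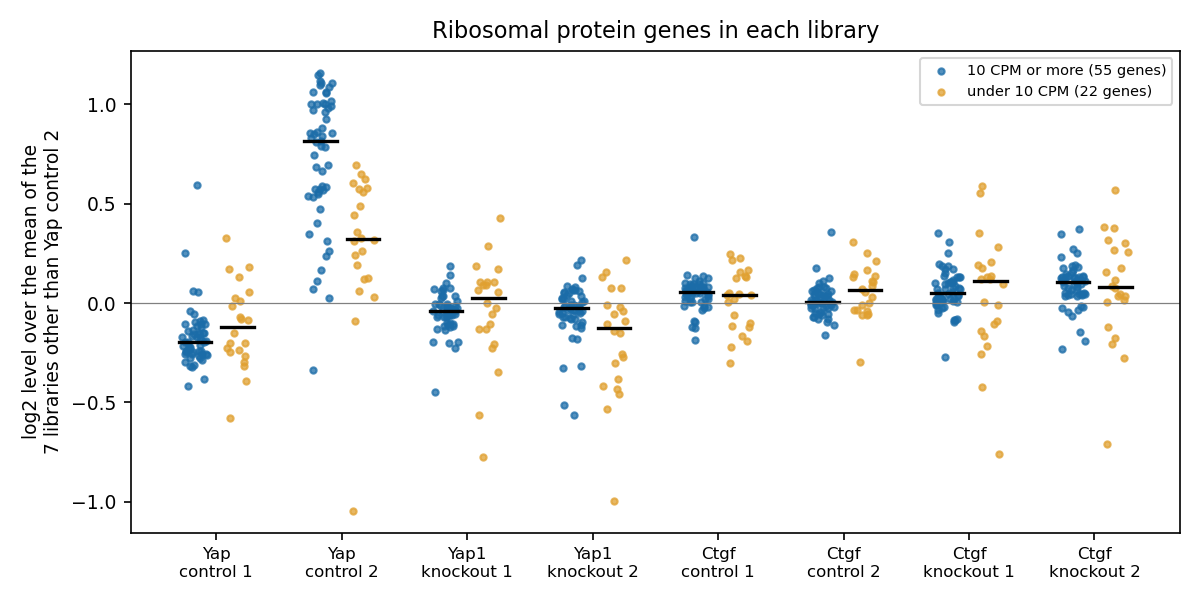
Level of each of the 77 tested ribosomal protein genes in each library as the log2 ratio to its mean over the 7 libraries other than Yap control 2, with blue points for the 55 genes at 10 CPM or more, orange points for the 22 under 10 CPM and a bar at each median. The blue points of Yap control 2 lie around a 1.76-fold rise while those of Yap control 1 lie below 0 except for Rpl5, Rpl13a, Rpl27a and Rps12, and the orange points rise less, with a median of 1.25-fold in Yap control 2.

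The comparison of Yap1 knockout with Yap control asks how ribosomal protein mRNAs stand in injured livers whose hepatocytes were targeted for Yap1 deletion. Yap1 is a transcriptional co-activator of the Hippo pathway that is known for promoting liver growth. With both controls, 72 of 77 members had a fold change below 0 and the median was -0.37 on the log2 scale, beside -0.0046 over all genes tested. Without Yap control 2, 59 of 77 lay above 0 and the median was 0.14, so on the TMM scale the direction for the group rests on that library. The share of counts was 0.576% ± 0.00530 in the knockouts and 0.775% ± 0.231 in the controls (SD, n = 2 each), a difference of -0.199 percentage points. The exact permutation test gave p = 0.333, two-sided, the smallest value that 2 against 2 libraries can give. Without Yap control 2 the share kept its direction, unlike the scaled levels. It was 0.612% in Yap control 1, against 0.579% and 0.572% in the knockouts.

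No member passed the threshold in the Yap1 comparison. By edgeR's quasi-likelihood test at an adjusted p of 0.05, 0 of 77 members passed, as did 0.0286% of all genes tested. At an unadjusted p of 0.05, 2 members passed (Rpl13a and Rpl5), and 13.8% of all genes. DESeq2 called 0 members and 3.67% of all genes, and limma-voom 0 members and 0.0357% of all genes. Both knockouts lay above both controls in 2 members (23.6% of all genes) and below both in 11 members (20.8% of all genes). Without Yap control 2, 0 members passed the adjusted threshold (0.28% of all genes) and 2 the unadjusted one (14.8%). Without Yap control 1, 44 members passed, all lower, as did 25.8% of all genes, with Yap control 2 then the lone control and taken to vary like the other groups.

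The stalk proteins, which bring elongation factors to the large subunit, followed the group. Rplp1 measured 195 and 515 CPM in the controls, against 228 and 230 CPM in the knockouts. The knockouts lie between the controls, and the fold change was -0.63 (log2, SE 0.40, edgeR adjusted p = 0.481), or 0.24 without Yap control 2. Rplp0 measured 317 and 594 CPM in the controls, against 379 and 377 CPM in the knockouts, with a fold change of -0.27 (log2, SE 0.30, edgeR adjusted p = 0.681), or 0.26 without Yap control 2. Rplp2 measured 97.1 and 234 CPM in the controls, against 114 and 118 CPM in the knockouts, and its log2 fold change went from -0.51 to 0.26. In each of these genes the knockouts lay within the spread of the controls.

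Rpsa, also known as the laminin receptor, measured 6.86 and 18.0 CPM in the controls, against 8.69 and 9.34 CPM in the knockouts, and its log2 fold change went from -0.46 with both controls to 0.40 without Yap control 2. Rps6, the substrate of the S6 kinases downstream of mTOR, measured 1.47 and 2.22 CPM in the controls, against 1.51 and 1.35 CPM in the knockouts, with log2 fold changes of -0.36 and -0.032. With 84.6% of its windows shared, its level is among the uncertain ones. Rps27l measured 52.0 and 103 CPM in the controls, against 58.1 and 62.2 CPM in the knockouts, with log2 fold changes of -0.37 and 0.21. Rps7, a small-subunit protein that also binds Mdm2, had 2.27 and 3.33 CPM in the controls and 1.55 and 1.83 CPM in the knockouts. Its groups did not overlap, and its log2 fold change of -0.72 (SE 0.34, edgeR adjusted p = 0.394) was -0.42 without Yap control 2.

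Rpl5 and Rpl11 form a particle with the 5S ribosomal RNA, which enters the large subunit and also binds Mdm2, the ligase that keeps p53 low. Rpl5 (chr5:107900502-107909005, 8 exons) measured 26.3 and 21.6 CPM in the controls, against 17 and 13.9 CPM in the knockouts. It was higher in Yap control 1 than in Yap control 2, unlike most members, and both knockouts lay below both controls. The log2 fold change was -0.63 (SE 0.22, edgeR adjusted p = 0.288), and -0.77 without Yap control 2 (edgeR adjusted p = 0.197), so its direction did not rest on that library. Its partner Rpl11 did not share the pattern, at 4.89 and 7.61 CPM in the controls and 5.33 and 4.64 CPM in the knockouts, with log2 fold changes of -0.32 and 0.028. Whether both genes' fold changes differ was not tested.

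Rpl13a, which is known to leave the ribosome for a complex that silences inflammatory mRNAs, measured 40.8 and 51.1 CPM in the controls, against 34.2 and 23.2 CPM in the knockouts. The groups did not overlap, and the log2 fold change was -0.68 (SE 0.23, edgeR adjusted p = 0.287), or -0.51 without Yap control 2. Without Yap control 1, which leaves Yap control 2 as the lone control, it was -0.86. In that setting many members were lower, Rplp1 at -1.20 among them. Of the values above 0, Rpl10, which joins the large subunit at a late step, measured 12.1 and 11 CPM in the controls, against 15.8 and 16.2 CPM in the knockouts. Its log2 fold change was 0.47 (SE 0.21, edgeR adjusted p = 0.371), and 0.40 without Yap control 2. Rpl24 had 1.19 and 0.659 CPM in the controls and 1.25 and 1.35 CPM in the knockouts, with log2 fold changes of 0.48 and 0.13. Rpl23a, which sits at the exit tunnel, measured 0.553 and 0.906 CPM in the controls, against 1.12 and 0.692 CPM in the knockouts, with log2 fold changes of 0.33 and 0.71 and groups that overlap. None of these passed the test.

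**Figure D4:**
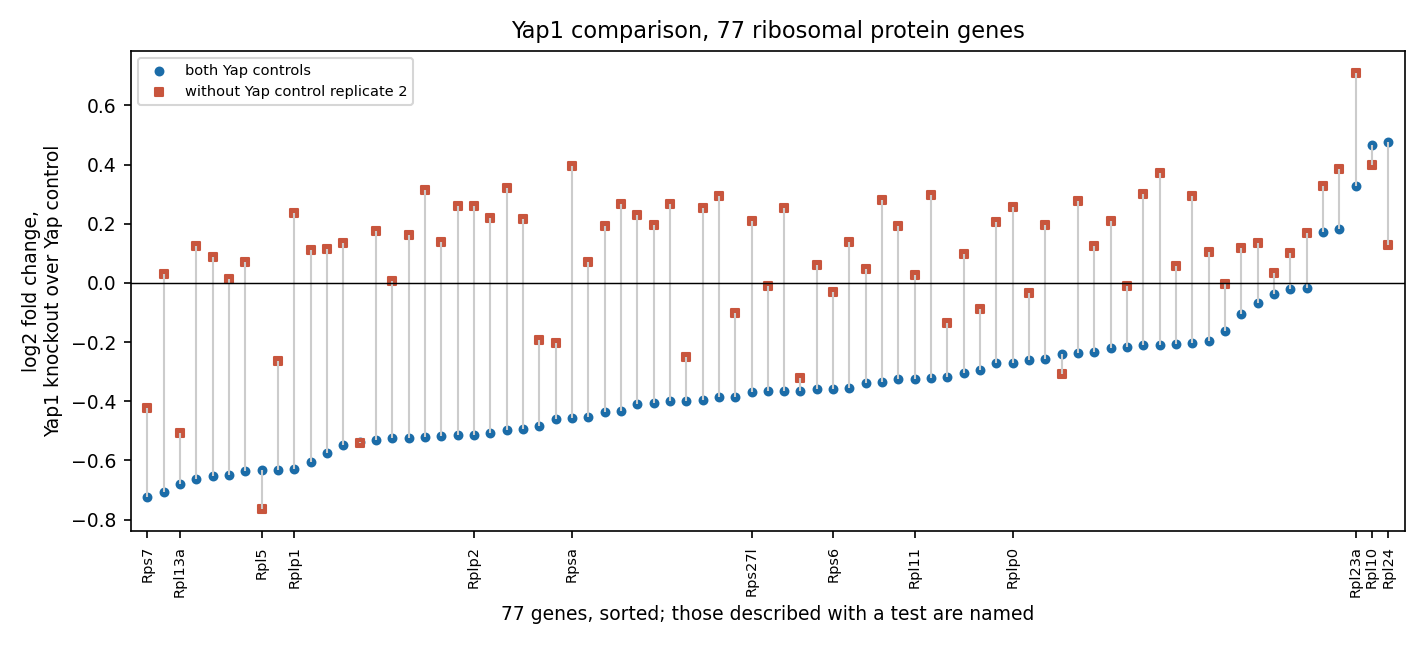
Log2 fold change of Yap1 knockout over Yap control for each of the 77 tested ribosomal protein genes, sorted, with both Yap controls (blue circles) and without Yap control 2 (red squares), joined by a grey line. With both controls 72 genes lie below 0, and without Yap control 2, 59 lie above 0, while Rpl5, Rpl13a, Rps7 and Rpl10 stay on their side.

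**Figure D5:**
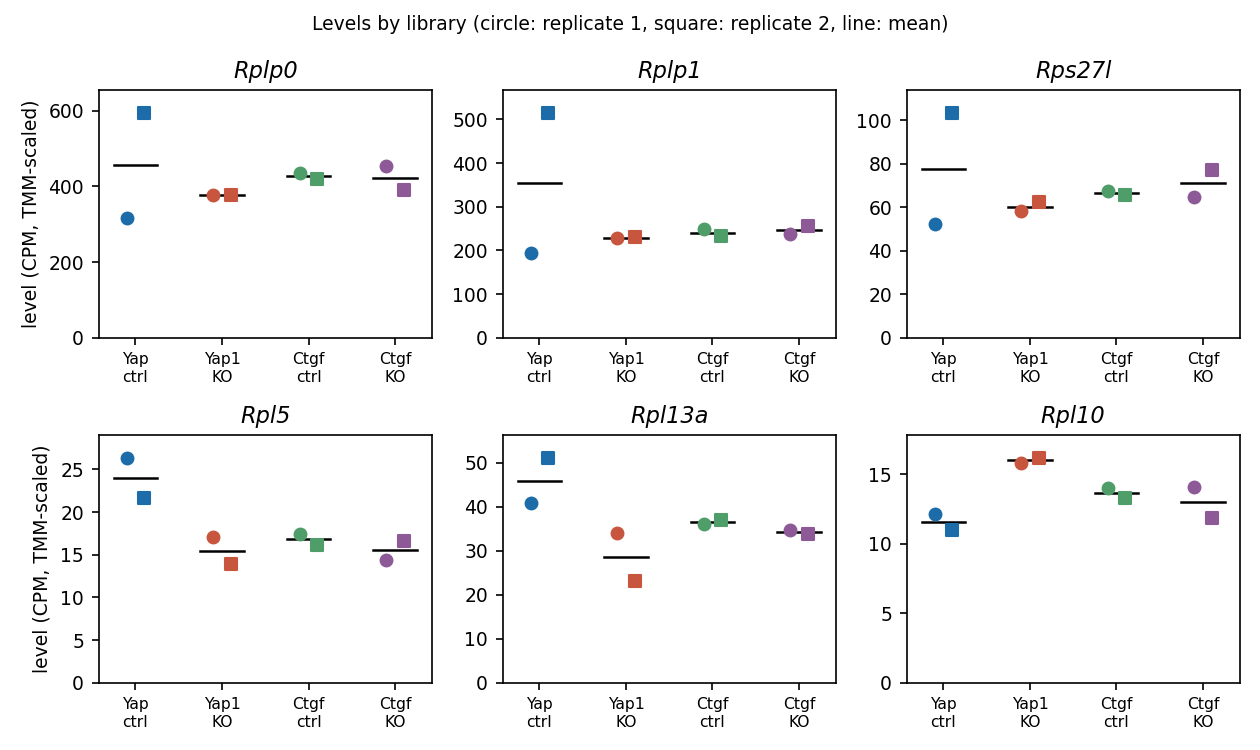
Level in CPM of 6 ribosomal protein genes in each library, by group, with circles for replicate 1, squares for replicate 2 and a line at the mean (n = 2). In Rplp0, Rplp1 and Rps27l the Yap control replicates lie on either side of the knockouts, and in Rpl5, Rpl13a and Rpl10 both Yap1 knockouts lie on one side of both controls.

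The comparison of the Ctgf groups asks the same of a secreted matrix-associated protein whose gene is a known target of Yap1. In the Yap line, Ctgf was higher in the Yap1 knockouts, at 406 and 324 CPM, than in the controls, at 96.8 and 50.1 CPM. Between the Ctgf groups, the fold changes of the 77 members ran from -0.38 to 0.33 on the log2 scale, and 57 lay above 0. The median was 0.048, beside 0.0064 over all genes tested. Scaling by total count alone turned the median to -0.055, with 19 members above 0, and the median of all genes then stood at -0.093. The share of counts was 0.620% ± 0.0198 in the knockouts as labelled and 0.646% ± 0.00262 in the controls (SD, n = 2 each), a difference of -0.0259 percentage points with p = 0.333 in the exact two-sided permutation test. The direction of the share thus differs from that of the scaled levels. EdgeR called 0 of 77 members at the adjusted threshold (0% of all genes tested) and 0 at an unadjusted p of 0.05 (1.98% of all genes). DESeq2 and limma-voom called 0 members each, and 0.0286% and 0.00714% of all genes. Both libraries labelled knockout lay above both controls in 18 members (15.5% of all genes) and below both in 2 members (16.8% of all genes).

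The members with the smallest p in each direction had small differences. Rpl27a (60S) measured 17 and 15.4 CPM in the Ctgf controls, 17.6 CPM in Ctgf knockout 1 and 22.2 CPM in the library labelled Ctgf knockout 2, with a log2 fold change of 0.30 (SE 0.22, edgeR adjusted p = 1). Rpl15 (60S) stood at 25.1 and 22.4 CPM against 25.9 and 29.0 CPM, with a log2 fold change of 0.21, and Rps7 at 2.90 and 2.81 CPM against 3.90 and 3.31 CPM, with 0.33. In these 3 genes both libraries labelled knockout lay above both controls. Among the lower values, Rps13 (40S) stood at 4.02 and 4.69 CPM against 3.72 and 3.63 CPM, with a log2 fold change of -0.24. Rpl10a measured 29.2 and 29.7 CPM in the controls, 29.6 CPM in Ctgf knockout 1 and 20.3 CPM in the library labelled Ctgf knockout 2, so its log2 fold change of -0.24 was 0.0076 without that library. Rps29, with 0.542 and 0.654 CPM against 0.603 and 0.318 CPM, likewise went from -0.38 to 0.011.

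The controls of the 2 lines differ in the floxed allele. The Yap controls received the GFP virus, and whether the Ctgf controls received any virus is not stated, so allele, virus and line cannot be told apart. With both Yap controls, 64 of 77 members were above 0 in Yap control over Ctgf control, with a median of 0.28 on the log2 scale beside 0.041 over all genes tested. Without Yap control 2, 8 of 77 lay above 0 and the median was -0.22. The share of counts was higher by 0.129 percentage points in the Yap controls (exact two-sided permutation p = 1), a difference that was -0.0345 points without Yap control 2. By edgeR, 0 members passed the adjusted threshold (2.38% of all genes tested) and 1, Rpl5, passed at an unadjusted p of 0.05 (22.5% of all genes). DESeq2 called 0 members and 10.9% of all genes, and limma-voom 0 members and 2.39%. Both Yap controls lay above both Ctgf controls in 6 members (26.1% of all genes) and below both in 3 members (27% of all genes), namely Rpl10, Rpl10a and Rpl24. Without Yap control 2, 0 members passed the adjusted threshold (7.07% of all genes) and 5 the unadjusted one (28.5%). Without Yap control 1, 41 members passed, all higher, as did 25.6% of all genes.

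Rpl5 was 26.3 and 21.6 CPM in the Yap controls and 17.5 and 16.1 CPM in the Ctgf controls, groups that do not overlap, with a log2 difference of 0.51 (SE 0.22, edgeR adjusted p = 0.216), or 0.64 without Yap control 2. Rpl10a was 17.3 and 24.3 CPM in the Yap controls and 29.2 and 29.7 CPM in the Ctgf controls, with a log2 difference of -0.50 (SE 0.27, edgeR adjusted p = 0.303), or -0.77 without Yap control 2. Rpl24 and Rpl10 had log2 differences of -0.57 and -0.24, or -0.23 and -0.17 without Yap control 2, smaller but of the same sign. In contrast, the values of Rpl26 and Rps21, which had the next smallest p above 0, rest on Yap control 2. Rpl26, at the exit tunnel, measured 44.6 and 99.0 CPM in the Yap controls, against 46.3 and 44.9 CPM in the Ctgf controls, and its log2 difference of 0.65 was -0.040 without that library. Rps21 went from 0.67 to -0.048 in the same way. With both Yap control 2 and the library labelled Ctgf knockout 2 left out, 4 members passed in this comparison (28.4% of all genes tested). Rpl5 was higher in Yap control 1 (log2 difference 0.64, edgeR adjusted p = 0.0348), and Rpl10a, Rplp0 and Rps4x were lower (-0.77, -0.44 and -0.38, edgeR adjusted p = 0.0198, 0.038 and 0.043). Here the Yap control group is a single library that is taken to vary like the others.

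The difference between the Yap1 effect and the Ctgf effect was tested in the same fit. The median over the members was -0.44 on the log2 scale, beside -0.0082 over all genes tested, and 0.10 without Yap control 2. Of 77 members, edgeR called 0 at the adjusted threshold (0% of all genes tested) and 0 at an unadjusted p of 0.05 (8.87% of all genes). DESeq2 called 0 members and 1.01% of all genes, and limma-voom 0 members and 0% of all genes. Without Yap control 1, 35 members were called, all lower, as were 14.5% of all genes. The members with the smallest p were, below 0, Rps7 (-1.06, SE 0.48, edgeR adjusted p = 0.57), Rpl27a (-0.70) and Rpl15 (-0.57), and, above 0, Rpl10 (0.54, SE 0.29, edgeR adjusted p = 0.599), Rpl24 (0.36) and Rps27a (0.22), the last made as a fusion with ubiquitin. All 6 kept their sign without Yap control 2, at -0.76, -0.55, -0.53, 0.47, 0.014 and 0.42.

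Ribosomal proteins whose symbols fall outside the name rule had medians of the same signs. The 7 in the table, among them Rps3a1 (40S) and Rack1, a scaffold on the 40S head, had a median of -0.35 in the Yap1 comparison and 0.18 without Yap control 2. Rack1 stood at 650 and 1183 CPM in the Yap controls and at 746 and 726 CPM in the Yap1 knockouts. The smallest p was that of Rpl7l1, with a log2 fold change of -0.35 (SE 0.18, edgeR adjusted p = 0.413), and -0.27 without Yap control 2. Ribosomal proteins of the mitochondrion, 77 tested, stood close to these: their median was -0.34 with both controls and -0.0076 without Yap control 2, and they summed to 3240 CPM in that library and to 1950 to 2453 CPM in the others. None of these genes passed the adjusted threshold in the Yap1 comparison.

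Translation factors and other known TOP mRNAs, 18 genes, had a median of -0.17 in the Yap1 comparison, with 15 below 0, and 0.13 without Yap control 2, with 16 above 0. None passed. Eif3k, a subunit of the initiation factor eIF3, stood at 64.1 and 131 CPM in the Yap controls and at 62.8 and 65.2 CPM in the knockouts (log2 fold change -0.61, SE 0.31, edgeR adjusted p = 0.413), and its fold change was -0.0011 without Yap control 2. Eef1d, a subunit of the elongation factor eEF1B, had a log2 fold change of -0.60, and 0.076 without Yap control 2. Pabpc1, the poly(A)-binding protein, went the other way, at 416 and 431 CPM in the Yap controls and 541 and 617 CPM in the knockouts (0.45, SE 0.23, edgeR adjusted p = 0.413), or 0.48 without Yap control 2.

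Genes of ribosome biogenesis, which process ribosomal RNA and assemble the subunits, had small fold changes between the Yap groups. Their median over 35 genes was -0.076 in the Yap1 comparison, with 23 below 0, and 0.059 without Yap control 2, with 21 above 0. With both controls, 0 passed the threshold (0.0286% of all genes tested) and 1 passed at an unadjusted p of 0.05 (13.8% of all genes). That gene, Nop10 of the pseudouridylation complex, measured 34.6 and 46.9 CPM in the controls, against 25.6 and 27.4 CPM in the knockouts (-0.62, SE 0.21, edgeR adjusted p = 0.274), and its log2 fold change was -0.38 without Yap control 2. In Yap control over Ctgf control the median was -0.48, with 31 of 35 below 0, 16 at an unadjusted p of 0.05 (22.5% of all genes) and 1 past the adjusted threshold (2.38% of all genes). Without Yap control 2 the median was -0.67, with 33 of 35 below 0 and 4 past the adjusted threshold (7.07% of all genes). The gene called with both controls was Rrp9, a protein of the U3 particle named here after its value was seen, at 14.4 and 16.2 CPM in the Yap controls and 37.1 and 36.1 CPM in the Ctgf controls (-1.26, SE 0.20, edgeR adjusted p = 0.0332). The 35 genes summed to 1899, 2485, 2104 and 2147 CPM in the 4 libraries of the Yap line. In the Ctgf line they summed to 3295, 3240 and 3495 CPM, and to 2629 CPM in the library labelled Ctgf knockout 2, so the lines do not overlap.

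Among 14 genes that control ribosomal protein synthesis, none passed in the Yap1 comparison and the median was -0.062. Myc, a transcription factor that drives ribosome production, had the smallest p, at 48.9 and 81.3 CPM in the Yap controls and at 96.3 and 113 CPM in the knockouts (0.68, SE 0.32, edgeR adjusted p = 0.387), and 1.1 without Yap control 2. Larp1 measured 270 and 290 CPM in the controls, against 222 and 216 CPM in the knockouts, with a log2 fold change of -0.36 (edgeR adjusted p = 0.447), or -0.30 without Yap control 2. Rps6kb2, an S6 kinase, had -0.45 (edgeR adjusted p = 0.426), or -0.19 without Yap control 2.

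Markers of other cell types also differed in level between groups and lines. Summed over 8 genes, neutrophil markers stood at 141 and 258 CPM in the Yap controls and at 1024 and 508 CPM in the Yap1 knockouts. Over 7 genes, erythroid markers stood at 123 and 229 CPM against 467 and 403 CPM. Stellate cell markers (4 genes) summed to 274 to 370 CPM in the Yap line and to 43.9 to 57.3 CPM in the Ctgf line. Lrat of that list overlapped between the lines, at 17.3 to 43.9 CPM and 19.1 to 37.8 CPM. Sinusoidal endothelial markers (4 genes) summed to 239 to 380 CPM and to 135 to 177 CPM. Of these, only Lyve1 was higher in every library of the Yap line, and Kdr stood at 25.4 to 64.1 CPM and 41.9 to 52.6 CPM. Cholangiocyte markers (4 genes) summed to 50.5 to 149 CPM over all libraries, but Krt7, Krt19 and Epcam were highest in Yap control 2. Krt19 stood at 32.6 CPM there and at 0.745 to 3.06 CPM elsewhere, and Epcam at 17.5 CPM and 1.14 to 3.16 CPM. Sox9 did not peak there, at 56.6 CPM against 45.8 to 145 CPM elsewhere. Macrophage markers (6 genes) summed to 310 to 1117 CPM over all libraries. B cell markers (5 genes) and T and NK cell markers (7 genes) summed to at most 10.6 and 4.61 CPM. Their part in the ribosomal protein values was not tested.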

How the data were processed

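Liver RNA was sequenced in 8 libraries, 2 in each of 4 groups taken from the sample labels. The authors deposited whole-number read counts per gene symbol. HTSeq 0.6.1, STAR 2.6.0a, bcl2fastq 2.20.0.422 and the builds mm10 and GRCm38 are named, without roles, in the submitters' processing notes. Not given in the sources used here are the annotation, the strand setting, the read length and the treatment of reads that match several places. The extract protocol names a TruSeq and a KAPA kit without saying which library used which.

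Counts were tested with edgeR 4.0.16 (R 4.3.3; TMM scaling, filterByExpr, quasi-likelihood F test), all 8 libraries in a single fit of the 4 groups with 4 residual degrees of freedom and a biological coefficient of variation of 27.2%. P-values were adjusted by Benjamini-Hochberg over all 13999 genes tested, with a threshold of 0.05. Standard errors were derived from each log2 fold change and its F value. The script was tested on simulated data. Alternatives were DESeq2 1.42.0, limma-voom (limma 3.58.1), other scalings and filters, single lines, the replicate number as a block, and leaving out libraries. Gene positions and transcripts come from GENCODE M21, and start sequences from RefSeq.

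The ribosomal protein genes and the companion lists were chosen with earlier results of these data known. Genes were named by rule: in each comparison the 3 smallest p per direction, 9 genes of known roles in the Yap1 comparison, the 5 highest and 5 lowest levels per kilobase, untested genes, genes with a paralog, and up to 3 genes per companion list. Genes picked for their ratio in Yap control 2 or as examples of start sequences were chosen after their values were seen. No start sequence on chromosome 18 is printed here, whereas the transcripts of Rpl17 and Rps14, which lie there, entered the values for shared windows. A gene that the rule names for its level is not reported here.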

Additional observations from a re-analysis of the deposited data

How the results depend on the processing

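The main limit is 2 libraries per group, with 1 control that stands apart. Leaving out single libraries moved the median log2 fold change of the ribosomal protein genes from -0.37 to between -0.71 and 0.14 in the Yap1 comparison, from 0.28 to between -0.22 and 0.59 between the controls, and from -0.44 to between -0.81 and 0.10 in the difference of the effects. The lower, higher and lower ends, in that order, came without Yap control 1 and the opposite ends without Yap control 2. The number of members called ranged from 0 to 44, 0 to 41 and 0 to 35 in these comparisons. The Ctgf median stayed between 0.031 and 0.089, with 0 calls. Without both Yap control 2 and the library labelled Ctgf knockout 2, the medians were 0.13, -0.22 and 0.11, and 4 members were called between the controls. Scaling by total count alone gave a Ctgf median of -0.055, and moved the median of all genes in the Yap1 comparison to -0.12. Upper quartile scaling moved that of all genes between the controls to 0.18, with the members at 0.43. The difference in share of counts between the controls ranged from -0.0345 to 0.292 percentage points.

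Leaving out single libraries moved the Yap1 log2 fold change across 0 for Rplp0 (-0.68 to 0.26), Rplp1 (-1.20 to 0.24), Rplp2 (-1.04 to 0.26), Rpsa (-1.02 to 0.40), Rpl11 (-0.64 to 0.028) and Rps27l (-0.81 to 0.21), with the upper end in each without Yap control 2. Rpl23a ran from -0.058 without Yap1 knockout 1 to 0.71, and was -0.026 without Yap control 1. Between the controls Rpl26 (-0.040 to 1.14) and Rps21 (-0.048 to 1.17) were below 0 without Yap control 2. In the Ctgf comparison Rpl10a (-0.52 to 0.0076) and Rps29 (-0.89 to 0.011) were above 0 without the library labelled Ctgf knockout 2. Without both that library and Yap control 2, the values were 0.26, 0.24, 0.26, 0.39, 0.027 and 0.21 for the first 6 genes, -0.039 for Rpl26, -0.047 for Rps21, 0.0080 for Rpl10a and 0.0095 for Rps29. Fitting the replicate number as a block gave a Yap1 median of -0.31 and changed no call. The title of Yap control 2 names a numbered Yap1 knockout, and that number stands in the column name of Yap1 knockout 2. The number in the title of Yap control 1 is that of its own column, and no label states a shared animal, litter or day. All other settings, namely DESeq2, limma-voom, RLE or upper quartile scaling, TMM without the members, other filters, single lines and the table without pancreas genes, kept each direction and call of these results, except that Rpl23a in the Yap1 comparison and Rps29 in the Ctgf comparison had no value under the filter of 1 CPM in 2 libraries. Medians over members at 10 CPM or more and under 10 CPM alone, chosen after seeing the data, kept the sign too with all libraries. Without Yap control 2, the Yap1 median was 0.17 at 10 CPM or more, with 49 of 55 above 0. Under 10 CPM it was -0.0066, with 10 of 22 above 0, so the turn of the group to above 0 was absent there. At these depths, members near 1 CPM rest on few counts, and their levels carry the widest spread.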
